A study of Mus musculus with 16 samples.

Results

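The genes described here are 10 components and transcriptional targets of the Hippo signalling pathway, out of 55487 genes in the count matrix of 16 mouse brain libraries. They were found by gene symbol, and the pathway was selected on the evacetrapib against vehicle values of these same libraries, in which Wwc1 had drawn attention. The treatment values of the 10 genes are therefore given as a description that no test supports, and the comparison of genotypes, a different contrast of the same mice, is given with its test. All 10 genes passed the filter on low counts, at least 10 counts in at least 4 mice, as did 18609 genes in all.

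The study asked how blocking CETP, a plasma protein that moves neutral lipids between lipoproteins and that mice lack, acts on the brain. CETPtg mice (CETP transgenic in the labels) carried human CETP under its own promoter. APPtg/CETPtg mice (APPxCETP double transgenic) carried in addition human APP751 with the Swedish and Indiana mutations, driven in neurons by the Thy1 promoter. All were heterozygous females on a C57BL/6J background, fed a diet with 1% cholesterol from 11 weeks of age and injected intraperitoneally every day for 11 weeks with either evacetrapib, a CETP inhibitor, at 30 mg/kg, or the Kolliphor EL-glucose vehicle. The 4 groups, CETPtg vehicle, CETPtg evacetrapib, APPtg/CETPtg vehicle and APPtg/CETPtg evacetrapib, held 4 mice each, and poly(A) RNA of bulk brain was sequenced. All mice analysed here carried the CETP transgene.

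As background, the Hippo pathway is a kinase cascade that restrains growth: the MST kinases activate the LATS kinases, which phosphorylate the coactivators YAP and TAZ and hold them in the cytoplasm. Unphosphorylated YAP and TAZ enter the nucleus and, bound to TEAD factors, switch on targets such as Ccn1, Ccn2 and Amotl2. KIBRA, the product of Wwc1, is an upstream scaffold that activates LATS, and in the brain it is also known as a postsynaptic protein associated with memory. Much of this control acts on protein phosphorylation and localisation, which RNA counts do not show.

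Libraries held between 21391335 and 55453789 counts. The median was 35195746 in CETPtg vehicle, 36574277 in CETPtg evacetrapib, 24992987 in APPtg/CETPtg vehicle and 23110676 in APPtg/CETPtg evacetrapib, so median depth was lower in APPtg/CETPtg. The deepest library was nevertheless mouse S8 of APPtg/CETPtg vehicle, above all 8 CETPtg mice, whose highest was 46800787. The lowest count of any of the 10 genes in any mouse was 71, for Ccn1. In the labels, the number in the sequencing index position separated the genotypes and its letter separated the treatments, so index position cannot be told apart from either. Markers of brain cell types fixed for this check were present in every mouse: the 6 neuron markers summed to between 6318 and 7544 CPM (counts per 1000000, with library sizes scaled by TMM), with Snap25 the most abundant, and the 6 oligodendrocyte markers to between 3340.5 and 5097 CPM, with Mbp the most abundant. The 8 astrocyte markers, led by Slc1a2, summed to between 2808 and 3860 CPM and the 6 microglia markers, led by Csf1r, to between 320.5 and 402 CPM. None of the genes in any marker list was at 0 in all mice. Thy1, whose promoter drives the APP transgene, was between 684 and 807 CPM in the 8 CETPtg mice and between 865 and 2063 CPM in the 8 APPtg/CETPtg mice, with a log2 fold change of 0.78 (SE 0.15, adjusted p = 0.00178 by edgeR's quasi-likelihood test), so the genotypes did not overlap for this gene. Mouse App did not pass the test between genotypes (log2 fold change 0.05, SE 0.05, adjusted p = 0.574).

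Per kilobase of exon, the only scale on which levels of different genes are compared here, Wwc1 stood highest of the 10 genes at 29.0 ± 1.90 CPM per kb (SD, n = 16), at the 91.0th percentile of the tested genes. Ccn2 followed at 12.3 ± 1.61 CPM per kb. The next 6 genes, Lats1, Wwc2, Amotl2, Wwtr1, Ccn1 and Yap1, lay between 4.26 and 2.81 CPM per kb, close to the median of 3.33 over 18589 tested genes with a length. Within that span the order of neighbours such as Wwtr1 (3.14 ± 0.366) and Ccn1 (3.12 ± 1.33) does not exceed their spread over mice. Lats2 (1.66 ± 0.172 CPM per kb) and Tead1, at the 30.5th percentile of the tested genes, were lowest. Among mice of a group, Ccn1 was the most variable of the 10 genes, with a coefficient of variation between 22.0% and 25.9%.

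**Figure D1:**
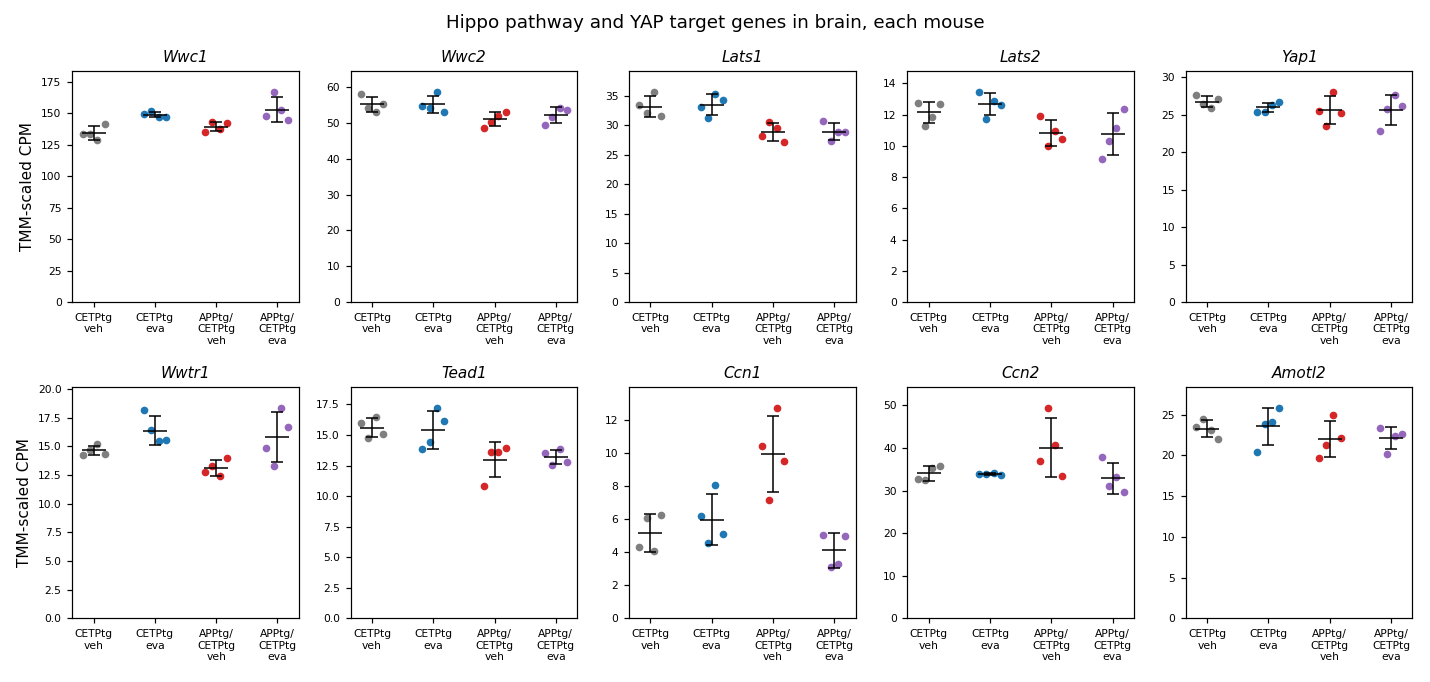
TMM-scaled CPM of the 10 genes in each mouse (points) of the 4 groups (veh, vehicle; eva, evacetrapib), with the group mean and SD (bar and whiskers, n = 4); each panel has its own axis from 0. Wwc1 is higher in all 8 evacetrapib mice than in all 8 vehicle mice, Lats1 is lower in all 8 APPtg/CETPtg mice, and Ccn1 has its highest group mean in APPtg/CETPtg vehicle, where 1 mouse lies below the highest CETPtg evacetrapib mouse.

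Wwc1 (ENSMUSG00000018849, chr11:35838400-35980527 in mm10, minus strand) encodes KIBRA. In CETPtg mice it was at 134, 134, 129 and 142 CPM under vehicle and at 149.7, 152, 147 and 147 CPM under evacetrapib. In APPtg/CETPtg mice it was at 135, 143, 138 and 142 CPM under vehicle and at 148, 167, 152 and 145 CPM under evacetrapib. Every evacetrapib mouse was above every vehicle mouse, and mouse F of the APPtg/CETPtg evacetrapib group was the highest of all. The groups ordered from APPtg/CETPtg evacetrapib (153 ± 9.89 CPM, SD, n = 4) through CETPtg evacetrapib (149 ± 2.29) and APPtg/CETPtg vehicle (139.5 ± 3.76) to CETPtg vehicle (134 ± 5.38), and within each treatment the genotypes overlapped. The log2 fold change with evacetrapib was 0.14 over all mice (SE 0.03), 0.15 in CETPtg (SE 0.05) and 0.13 in APPtg/CETPtg (SE 0.05), with a difference between genotypes of -0.02 (SE 0.07). Groups of all mice that did not overlap by treatment were seen in 0.0537% of tested genes, and nothing is read from this share because the treatment contrast entered the choice of genes. Between genotypes Wwc1 did not pass the test (log2 fold change 0.05, SE 0.03, adjusted p = 0.350 by edgeR).

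Wwc2 (ENSMUSG00000031563, chr8:47823959-47990924, minus strand) encodes the other KIBRA family scaffold among the 10 genes. It ranged from 53.0 to 58.7 CPM over the 8 CETPtg mice and from 48.6 to 54.2 CPM over the 8 APPtg/CETPtg mice, so the genotypes overlapped. The genotype difference of -0.10 on the log2 scale (SE 0.03) had an adjusted p of 0.0572 by edgeR and was not called. Its log2 fold change with evacetrapib was 0.02 over all mice (SE 0.03). Wwc2 shares 995 exonic bases with Cldn22 on the opposite strand, which held at most 19 counts in any mouse.

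Lats1 and Lats2 encode the LATS kinases. Lats1 (ENSMUSG00000040021, chr10:7681214-7716460, plus strand) was at 33.4, 32.1, 35.7 and 31.5 CPM in CETPtg vehicle and at 33.1, 31.2, 35.4 and 34.3 CPM in CETPtg evacetrapib. It was at 28.2, 30.5, 29.5 and 27.1 CPM in APPtg/CETPtg vehicle and at 30.7, 27.3, 28.9 and 28.9 CPM in APPtg/CETPtg evacetrapib. All 8 APPtg/CETPtg mice were below all 8 CETPtg mice. Over all mice Lats1 was lower in APPtg/CETPtg, with a log2 fold change of -0.21 (SE 0.04, adjusted p = 0.00136 by edgeR). Within vehicle the difference was -0.21 (SE 0.06, adjusted p = 0.0289) and within evacetrapib -0.21 (SE 0.06, adjusted p = 0.0528), and the vehicle value lost its call without mouse S1, S3, S5 or S8, with adjusted p up to 0.113, and with no filter on low counts (adjusted p = 0.0671). With evacetrapib it moved by 0.01 over all mice (SE 0.04).

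Lats2 (ENSMUSG00000021959, chr14:57689662-57758388, minus strand), the paralog of Lats1, was at 12.7, 11.3, 11.9 and 12.7 CPM in CETPtg vehicle and at 13.5, 11.7, 12.9 and 12.6 CPM in CETPtg evacetrapib. It was at 11.9, 10.005, 10.9 and 10.4 CPM in APPtg/CETPtg vehicle and at 9.14, 10.3, 11.2 and 12.3 CPM in APPtg/CETPtg evacetrapib. The genotypes overlapped, with mice S5 and H among the CETPtg values. Lats2 was lower in APPtg/CETPtg over all mice (log2 fold change -0.20, SE 0.06, adjusted p = 0.0261 by edgeR), and the call was lost without mouse A (adjusted p = 0.0520). Neither genotype comparison within a treatment called it, and its treatment value was 0.03 over all mice (SE 0.06). Gm49361 shares 2955 exonic bases with Lats2 on the same strand and held 0 counts in every mouse.

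Yap1 (ENSMUSG00000053110, chr9:7931999-8004596, minus strand) and Wwtr1 (ENSMUSG00000027803, chr3:57455649-57575910, minus strand) encode the coactivators YAP and TAZ. Yap1 ranged from 22.9 to 28.1 CPM over all 16 mice, its log2 fold change with evacetrapib was -0.02 (SE 0.04), and it did not pass the test between genotypes (-0.04, SE 0.04, adjusted p = 0.542 by edgeR). The extremes of Yap1, mice E and S7, were both APPtg/CETPtg. Wwtr1 was at 14.3, 14.7, 15.2 and 14.4 CPM in CETPtg vehicle and at 18.2, 16.4, 15.4 and 15.5 CPM in CETPtg evacetrapib. It was at 12.7, 13.2, 12.4 and 14.0 CPM in APPtg/CETPtg vehicle and at 14.9, 13.3, 18.3 and 16.7 CPM in APPtg/CETPtg evacetrapib. In CETPtg the treatments did not overlap, while in APPtg/CETPtg mouse F, on evacetrapib, fell within the vehicle values. The log2 fold change with evacetrapib was 0.21 over all mice (SE 0.06), 0.16 in CETPtg (SE 0.08) and 0.26 in APPtg/CETPtg (SE 0.09). Between genotypes Wwtr1 did not pass the test (-0.10, SE 0.06, adjusted p = 0.246).

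Markers of vascular cells and, in APPtg/CETPtg, of fibroblasts and meninges mostly had the positive sign of Wwtr1 with evacetrapib, and few of them were called; the product of Wwtr1 is known in endothelial and mural cells. All 10 endothelial markers had a positive log2 fold change with evacetrapib over all mice (median 0.27, beside -0.00 over all tested genes). Of these 10, edgeR called 0, and 8 had an unadjusted p below 0.05, beside 1472 of 18609 tested genes. All 9 mural markers were also positive (median 0.25), and 1 was called, beside 0.0107% of tested genes. The endothelial list holds Pecam1, Cdh5, Flt1 and Kdr, and the mural list Acta2, Tagln and Myh11. The study reported these genes among those changed by evacetrapib in these same libraries. Nothing is read from the signs, medians or counts of both lists. The endothelial sum, led by Flt1, was 245, 243, 245 and 284 CPM in CETPtg vehicle, 314, 266, 296 and 277 in CETPtg evacetrapib, 215, 242, 235 and 270.4 in APPtg/CETPtg vehicle, and 283, 276, 328 and 302 in APPtg/CETPtg evacetrapib. Mouse G, the highest for Wwtr1, was also the highest for this sum. The mural sum, led by Rgs5, was 183, 188, 183 and 210.3 CPM in CETPtg vehicle, 209.5, 213, 207 and 224 in CETPtg evacetrapib, 169, 157, 174 and 208 in APPtg/CETPtg vehicle, and 217, 214, 235 and 234 in APPtg/CETPtg evacetrapib. Of the 8 fibroblast and meninges markers 7 were positive over all mice (median 0.18). In APPtg/CETPtg 8 of 8 were positive (median 0.35). Of these, 4 had an unadjusted p below 0.05, beside 1677 of 18609 tested genes. In CETPtg 3 of 8 were positive (median -0.01), and edgeR called 0 in each comparison. Their sum, led by Islr, was 81.8, 74.7, 94.7 and 77.5 CPM in CETPtg vehicle, 73.3, 72.5, 72.3 and 93.1 in CETPtg evacetrapib, 54.6, 95.8, 75.5 and 72.2 in APPtg/CETPtg vehicle, and 105.4, 84.3, 102.3 and 85.1 in APPtg/CETPtg evacetrapib. Mouse S5 was the lowest and mouse E the highest for this sum, and the treatments overlapped in both genotypes. Of the 8 astrocyte markers 4 were positive and 4 negative over all mice (median 0.02, 3 at an unadjusted p below 0.05). In APPtg/CETPtg 5 of these 8 were positive (median 0.09, 4 at an unadjusted p below 0.05). In CETPtg 3 were positive (median -0.03), and edgeR called 0 in each comparison. The part of vascular, fibroblast, meningeal or astrocyte RNA in the Wwtr1 values was not tested. In bulk tissue more cells of a type and more RNA per cell cannot be told apart.

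Tead1 (ENSMUSG00000055320, chr7:112679318-112906807, plus strand) encodes a DNA-binding partner of YAP and TAZ. It was at 15.97, 14.8, 16.5 and 15.1 CPM in CETPtg vehicle and at 13.8, 14.4, 17.2 and 16.1 CPM in CETPtg evacetrapib. It was at 10.8, 13.6, 13.6 and 13.9 CPM in APPtg/CETPtg vehicle and at 13.5, 12.6, 13.8 and 12.8 CPM in APPtg/CETPtg evacetrapib. Only mouse A of the CETPtg mice reached the APPtg/CETPtg values, and mouse S5 was far below the rest of its group. Tead1 was lower in APPtg/CETPtg over all mice (log2 fold change -0.24, SE 0.06, adjusted p = 0.00733 by edgeR), and this call held without each mouse in turn, with adjusted p between 0.00475 and 0.0183. Within vehicle it was at -0.26 (SE 0.08, adjusted p = 0.0565) and within evacetrapib at -0.22 (SE 0.08, adjusted p = 0.153), neither called. Its treatment value was -0.00 over all mice (SE 0.06).

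Ccn1 (ENSMUSG00000028195, chr3:145646976-145649981, minus strand) encodes a secreted matricellular protein that is both a YAP target and an early response gene. It was at 4.29, 6.05, 4.07 and 6.24 CPM in CETPtg vehicle and at 6.18, 4.56, 8.05 and 5.08 CPM in CETPtg evacetrapib. It was at 10.4, 7.17, 12.7 and 9.50 CPM in APPtg/CETPtg vehicle and at 5.06, 3.09, 3.27 and 4.97 CPM in APPtg/CETPtg evacetrapib. In APPtg/CETPtg all 4 vehicle mice were above all 4 evacetrapib mice, and in CETPtg the treatments overlapped. The log2 fold change with evacetrapib was -1.28 in APPtg/CETPtg (SE 0.22) and 0.22 in CETPtg (SE 0.21), a difference of -1.49 (SE 0.30). The CETPtg value lay between 0.04 and 0.33 without each mouse in turn. Within vehicle, Ccn1 was higher in APPtg/CETPtg than in CETPtg (log2 fold change 0.95, SE 0.21, adjusted p = 0.00800 by edgeR), a comparison that shares its vehicle mice with the treatment contrasts. Within evacetrapib it was at -0.54 (SE 0.22, adjusted p = 0.171) and over all mice at 0.24 (SE 0.22, adjusted p = 0.508). Without each mouse in turn the genotype value over all mice lay between 0.12 and 0.37.

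Immediate early genes, transcripts that neurons and other cells make within minutes of a stimulus, had the signs of Ccn1. With evacetrapib all 10 of the list had a negative log2 fold change in APPtg/CETPtg (median -0.99, 2 called by edgeR, beside 0.0430% of tested genes) and a positive one in CETPtg (median 0.09, with 0 called and 0 at an unadjusted p below 0.05). Within vehicle all 10 were positive for APPtg/CETPtg against CETPtg (median 0.74, 5 called, beside 10.4% of tested genes). The summed level, led by Egr1, was 481, 722, 696 and 692 CPM in CETPtg vehicle, 721, 659, 864 and 618 in CETPtg evacetrapib, 892, 943, 1185 and 885 in APPtg/CETPtg vehicle, and 574, 305, 528 and 738 in APPtg/CETPtg evacetrapib. Mouse S7 was the highest for both this sum and Ccn1, and mouse F was the lowest for both. Choroid plexus markers had the same signs in APPtg/CETPtg. With evacetrapib all 6 were negative (median -1.19), with 0 called by edgeR. Of these, 4 had an unadjusted p below 0.05, beside 1677 of 18609 tested genes. Within vehicle all 6 were positive for APPtg/CETPtg against CETPtg (median 0.46), with 0 called and 0 at an unadjusted p below 0.05. In CETPtg, where Ccn1 was positive with evacetrapib, 2 of the 6 were positive and 4 negative (median -0.10). Their sum, led by Ttr, was 17.9, 14.8, 164 and 10.5 CPM in CETPtg vehicle, 13.96, 121, 39.8 and 16.5 in CETPtg evacetrapib, 17.5, 11.8, 118 and 462 in APPtg/CETPtg vehicle, and 12.3, 13.9, 15.4 and 26.8 in APPtg/CETPtg evacetrapib. Mice S3, B, S7 and S8 stood apart from the rest for this sum, and S7 was the highest for Ccn1. Blood markers had the signs of Ccn1 in all 3 contrasts: with evacetrapib all 5 were negative in APPtg/CETPtg (median -0.42) and positive in CETPtg (median 0.39), and within vehicle all 5 were positive for APPtg/CETPtg against CETPtg (median 0.21), with 0 called and 0 at an unadjusted p below 0.05 in each. Their sum, led by Hbb-bs, was 92.1, 154.6, 112.4 and 158.8 CPM in CETPtg vehicle, 288.9, 116.4, 92.8 and 153.2 in CETPtg evacetrapib, 116.9, 97.0, 141.9 and 230.7 in APPtg/CETPtg vehicle, and 136.8, 69.9, 120.5 and 126.8 in APPtg/CETPtg evacetrapib. Mice A and S8 were the highest for this sum and mouse F the lowest, and the treatments overlapped in both genotypes. The part of immediate early genes or of choroid plexus RNA or blood in the Ccn1 values was not tested.

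**Figure D2:**
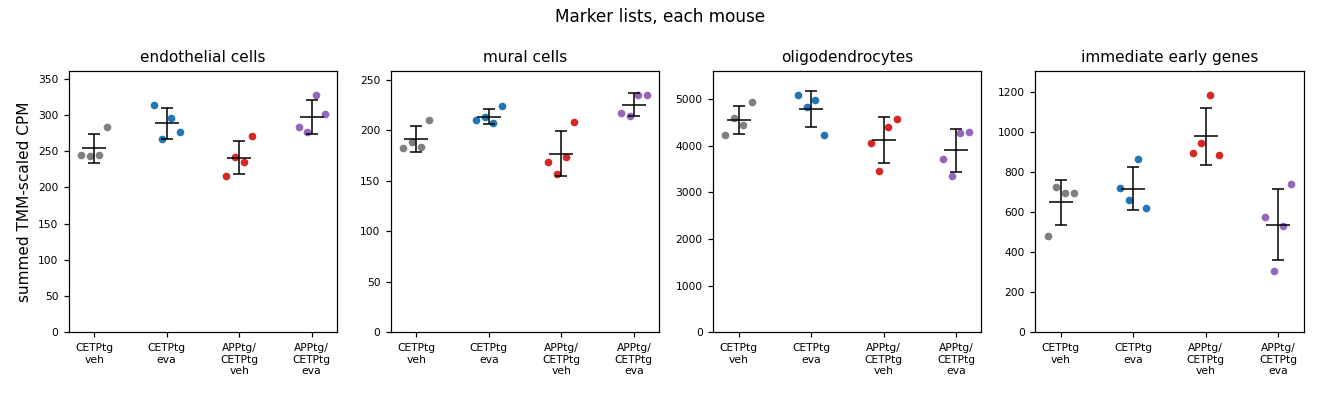
Summed TMM-scaled CPM of 4 marker lists in each mouse (points) of the 4 groups (veh, vehicle; eva, evacetrapib), with the group mean and SD (bar and whiskers, n = 4) and axes from 0. The endothelial and mural sums average higher with evacetrapib, the oligodendrocyte sum averages lower in APPtg/CETPtg, and the 4 APPtg/CETPtg vehicle mice have the highest immediate early gene sums.

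Ccn2 (ENSMUSG00000019997, chr10:24595442-24598683, plus strand), the relative of Ccn1, was at 32.7, 32.4, 35.2 and 35.8 CPM in CETPtg vehicle and at 34.0, 34.0, 34.2 and 33.7 CPM in CETPtg evacetrapib. It was at 36.9, 49.4, 40.6 and 33.4 CPM in APPtg/CETPtg vehicle and at 37.8, 31.0, 33.1 and 29.6 CPM in APPtg/CETPtg evacetrapib. Mouse S6 was the highest, and the treatments overlapped in both genotypes. The log2 fold change with evacetrapib was -0.28 in APPtg/CETPtg (SE 0.09), and without mouse S6 it was -0.16, against -0.00 in CETPtg (SE 0.09). Between genotypes Ccn2 did not pass the test over all mice (0.09, SE 0.07, adjusted p = 0.405 by edgeR) or within vehicle (0.23, SE 0.09, adjusted p = 0.119), where it passed only without mouse S8 (adjusted p = 0.0382) and was at 0.11 without mouse S6 (adjusted p = 0.416). The genotype value over all mice lay between 0.02 and 0.12 without each mouse in turn. Ccn2 shares 665 exonic bases with Gm15270 on the opposite strand, which held up to 81 counts, and the strand setting of the counting is not given in the sources used here. Amotl2 (ENSMUSG00000032531, chr9:102716672-102733418, plus strand), a target that also binds YAP, ranged from 19.6 to 25.8 CPM over the 16 mice, with a treatment value of 0.01 (SE 0.05) and no call between genotypes (-0.08, SE 0.05, adjusted p = 0.300).

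Between genotypes, 3 of the 10 genes were called over all mice, beside 17.7% of tested genes, and all 3 were lower in APPtg/CETPtg, beside 8.38% of tested genes called lower and 9.35% called higher. Within vehicle 2 of 10 were called (10.4% of tested genes), Lats1 lower (4.42%) and Ccn1 higher (5.98%). Within evacetrapib edgeR called 0 of 10 (2.99%), DESeq2 called 1, Lats1, and limma 0. There, 4 of the 10 had an unadjusted p below 0.05 by edgeR, beside 3585 of 18609 tested genes. These counts describe 10 genes, and nothing particular to the pathway is read from them. The median log2 fold change of the 10 genes was -0.09 over all mice, beside 0.00 for all tested genes. Groups did not overlap by genotype for 1 of 10 genes over all mice (3.03% of tested genes), for 4 within vehicle (17.0%) and for 2 within evacetrapib (10.8%). The p-values reflect the spread among these mice.

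With evacetrapib, edgeR called 0 of the 10 genes over all mice (0.0107% of tested genes), 0 in CETPtg (0% of tested genes) and 1, Ccn1, in APPtg/CETPtg (0.0430%), and called 0 for the difference between genotypes (0%). The Ccn1 call was lost in the fit to that genotype alone, with a block for the mouse numbers in the column headings, and without each of 7 of the 16 mice in turn. Over all mice DESeq2 called 59 genes, Wwc1 among them, and limma called 2. In CETPtg, where no tested gene was called, 1079 had an unadjusted p below 0.05, and DESeq2 and limma also called 0. With no filter on low counts edgeR called 9 genes in CETPtg. For the difference between genotypes, 1271 had an unadjusted p below 0.05, DESeq2 called 2 and limma 0. Groups did not overlap by treatment for 2 of 10 genes in CETPtg (3.92% of tested genes) and for 2 in APPtg/CETPtg (4.29%). Nothing is read from these counts, because the treatment contrasts entered the choice of genes. The median log2 fold change of the 10 genes with evacetrapib over all mice was 0.01.

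**Figure D3:**
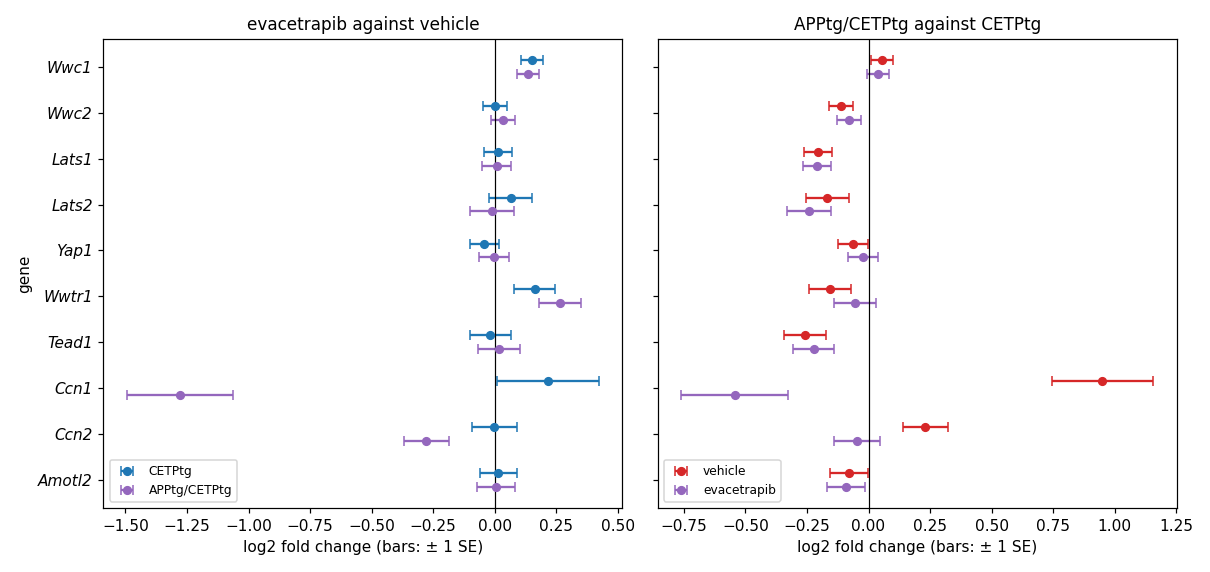
Log2 fold changes (points) with their standard errors (bars) of the 10 genes: evacetrapib against vehicle in each genotype (left, a description) and APPtg/CETPtg against CETPtg in each treatment (right). Ccn1 has the largest values, -1.28 with evacetrapib in APPtg/CETPtg and 0.95 between genotypes under vehicle, and 7 of the 10 genes, all but Wwc1, Ccn1 and Ccn2, are negative between genotypes under both treatments.

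Markers of glial cells and depth also differed between genotypes. All 6 oligodendrocyte markers were negative for APPtg/CETPtg against CETPtg over all mice (median -0.20), and 3 were called lower, beside 8.38% of tested genes. Their sum, led by Mbp, was 4233, 4592, 4441 and 4944 CPM in CETPtg vehicle, 5097, 4833, 4988 and 4228 in CETPtg evacetrapib, 4055, 3454, 4394 and 4568 in APPtg/CETPtg vehicle, and 3717, 3340.5, 4262 and 4288 in APPtg/CETPtg evacetrapib. Mouse F was the lowest and mouse A the highest for this sum. Of the 8 astrocyte markers 5 were negative (median -0.07), with 2 called lower and 1 higher, beside 8.38% and 9.35% of tested genes. Their sum was 3595, 3550, 3408 and 3660 CPM in CETPtg vehicle, 3823, 3525, 3860 and 3468 in CETPtg evacetrapib, 2808, 3170, 3155 and 3317 in APPtg/CETPtg vehicle, and 3178, 3517, 3409 and 3349 in APPtg/CETPtg evacetrapib. All 4 APPtg/CETPtg vehicle mice were below all 8 CETPtg mice for this sum. Microglia markers went the other way, with 5 of 6 positive (median 0.11) and 2 called higher, beside 9.35% of tested genes. Their sum was 345, 349, 331 and 371 CPM in CETPtg vehicle, 325, 359.7, 336 and 320.5 in CETPtg evacetrapib, 361, 357, 334 and 402 in APPtg/CETPtg vehicle, and 360.2, 385, 398 and 364 in APPtg/CETPtg evacetrapib. The part of glial RNA or depth in the Lats1, Lats2 and Tead1 values was not tested.

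The other genes of the pathway come from lists arranged by role. Of 37 genes of the upstream cascade, 6 were called between genotypes over all mice, 5 lower and 1 higher (median -0.04), beside 17.7% of all tested genes called, 8.38% lower and 9.35% higher. Within vehicle 6 of the 37 were called, all lower (median -0.11), beside 10.4% of tested genes called and 4.42% called lower. Nothing particular to the list is read from these counts. Taok1, a kinase that acts on the MST kinases, was at 125 ± 11.0 CPM in CETPtg vehicle and 95.0 ± 7.03 in APPtg/CETPtg vehicle (SD, n = 4), with a log2 fold change over all mice of -0.34 (SE 0.05, adjusted p = 0.000225 by edgeR). Mob1b, an activator of the LATS kinases, was at 19.9 ± 1.82 and 15.7 ± 0.798 CPM in the same groups, with -0.37 (SE 0.06, adjusted p = 0.000612). The striatins Strn and Strn3, subunits of a phosphatase complex that opposes MST, were called lower at -0.18 (SE 0.04, adjusted p = 0.00472) and -0.16 (SE 0.05, adjusted p = 0.0206). With evacetrapib edgeR called 0 of the 37 (median 0.01). Of these, 2 had an unadjusted p below 0.05, beside 1472 of 18609 tested genes. The smallest p-values belonged to Scrib (-0.12, SE 0.05) and Limd1 (0.14, SE 0.06), both with adjusted p above 0.5.

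Of 7 TEAD family members and VGLL cofactors, Vgll1 and Vgll2 were below the filter and edgeR called 0 of the other 5 between genotypes or with evacetrapib, with 0 at an unadjusted p below 0.05 in either. Tead3 was at -0.16 (SE 0.10) and Vgll4 at 0.06 (SE 0.05) between genotypes. Tead2 was at 0.12 (SE 0.10) and Vgll3 at 0.08 (SE 0.17) with evacetrapib. Of 18 further YAP and TAZ target genes, Ankrd1 was below the filter, and of the other 17, 2 were called between genotypes, both lower, beside 8.38% of all tested genes called lower: Rbms3 (-0.32, SE 0.08, adjusted p = 0.00988 by edgeR) and Dock5 (-0.20, SE 0.06, adjusted p = 0.0349). With evacetrapib edgeR called 0 of 17 (median 0.03), and 2 had an unadjusted p below 0.05, beside 1472 of 18609 tested genes. These were F3 at -0.17 (SE 0.05, adjusted p = 0.269 by edgeR) and Foxf2 at 0.34 (SE 0.11, adjusted p = 0.434). The lists of upstream genes and of targets share Fjx1 and Ptpn14.

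Of 8 binding partners of KIBRA, 3 were called between genotypes, beside 17.7% of all tested genes, and nothing particular to the list is read from this count. Pick1, a synaptic PDZ protein, was higher in APPtg/CETPtg (0.20, SE 0.05, adjusted p = 0.00762 by edgeR), as was Dynll1, a dynein light chain (0.15, SE 0.04, adjusted p = 0.0223). Prkci, an atypical protein kinase C, was lower (-0.12, SE 0.03, adjusted p = 0.0263). With evacetrapib edgeR called 0 of 8, and 1 had an unadjusted p below 0.05, beside 1472 of 18609 tested genes. Snx4 at -0.08 (SE 0.04) and Ddn at 0.07 (SE 0.05) had the smallest p-values.

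Among mice of a group, shared movement of the 10 genes was not detected. With group means removed, 0 of 45 pairs passed a permutation test over the 16 mice after Benjamini-Hochberg adjustment, 3 had an unadjusted p below 0.05 for Pearson's r and 4 for Spearman's rho, and the median r was 0.05. Lats1 and Ccn2 had r = 0.59 (permutation p = 0.0191, adjusted p = 0.512) and rho = 0.61 (permutation p = 0.0273, adjusted p = 0.457), with r = 0.67 without the 2 mice farthest from the median of Lats1. Wwc1 and Lats1 had r = -0.57 (permutation p = 0.0315, adjusted p = 0.512) and rho = -0.55 (permutation p = 0.0508, adjusted p = 0.457), with r = -0.40 without the 2 mice farthest from the median of Wwc1. Wwc2 and Yap1 had r = 0.56 (permutation p = 0.0396, adjusted p = 0.512). Their rho was 0.60 (permutation p = 0.0321, adjusted p = 0.457). Without the 2 mice farthest from the median of Wwc2, r was 0.60. These tests were two-sided. Even the largest r, 0.62 for Tead1 and Amotl2, had an adjusted p of 0.512 by the permutation test. With so few mice, the lack of passing pairs does not show that the genes vary independently.

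Searched over 14977 genes with a mean of at least 1 CPM, the genes nearest to Ccn1 in the same residual values were Spock3 (r = 0.90 over 16 mice) and Dusp1 (r = 0.89), the latter from the immediate early gene list. The nearest to Wwtr1 were Eng (r = 0.83), an endothelial coreceptor, and Vegfa (r = 0.83), a growth factor that acts on endothelial cells. The nearest to Wwc1 were Wdr13 (r = 0.88) and Rhno1 (r = 0.87), and to Lats1 Zfp667 (r = 0.90) and Ints8 (r = 0.89). These are the highest of many values and are given as a description. For the other 6 genes the nearest were Tti1 and Unc80 (Wwc2), Slc29a3 and Sgcz (Lats2), Gm10710 and Nit2 (Yap1), Sgms2 and Col1a2 (Tead1), Cers6 and Lyn (Ccn2), and Mthfd2l and Sox13 (Amotl2), with r between 0.83 and 0.91.

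Promoter windows from RefSeq (GRCm38.p6), 250 bases before to 50 after a transcript start, were matched for 8 of the 10 genes, with 10 windows in all; Tead1 and Ccn2 were not matched. The windows of Wwc2, Amotl2 and Lats2 lie inside the gene spans given above, which come from GENCODE. The TEAD motif GGAATG, searched on both strands, was present in 7 of the 10 windows and in 6 of the 8 genes (Wwc2, Lats2, Yap1, Wwtr1, Ccn1 and Amotl2), beside 14.7% of 32851 promoters of the same length. The windows of Wwtr1 overlap and hold the same match, which is counted in both. The genes were listed as components and targets of the pathway, so nothing is read from these shares. The CArG box bound by SRF was in 0 of the 10 windows, beside 1.63% of all promoters. The windows of 2 targets are shown because both hold the motif once, as its reverse complement CATTCC, while their genotype calls differed. Ccn1 was called within vehicle, though not over all mice, and Amotl2 was called in neither. Capitals mark the motif; the windows are chr3:145649936-145650235 on the minus strand and chr9:102717554-102717853 on the plus strand.
Ccn1: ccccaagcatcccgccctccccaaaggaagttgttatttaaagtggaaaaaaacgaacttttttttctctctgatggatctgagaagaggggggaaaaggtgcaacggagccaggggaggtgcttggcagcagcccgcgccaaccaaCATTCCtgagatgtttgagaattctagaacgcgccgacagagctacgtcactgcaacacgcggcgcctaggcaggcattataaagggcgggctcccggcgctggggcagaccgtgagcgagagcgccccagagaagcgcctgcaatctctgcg
Amotl2: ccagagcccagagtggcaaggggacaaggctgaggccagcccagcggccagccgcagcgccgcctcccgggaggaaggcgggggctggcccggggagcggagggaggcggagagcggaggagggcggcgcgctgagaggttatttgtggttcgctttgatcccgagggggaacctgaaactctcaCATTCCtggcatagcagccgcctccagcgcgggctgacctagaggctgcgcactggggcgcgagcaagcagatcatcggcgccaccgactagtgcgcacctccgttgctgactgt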

How the data were processed

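The deposited values are whole-number read counts per gene in bulk brain of 16 mice. According to the submitters' processing notes, the authors used Trimmomatic 0.39, STAR 2.7.8a with mm10, Picard 2.0.1 and HTSeq; an annotation or strand setting for the counting is not given in the sources used here. Counts were tested in R 4.3.3 with edgeR 4.0.16 (TMM, quasi-likelihood test), keeping genes that reached 10 counts in 4 or more mice. A gene was called where its Benjamini-Hochberg adjusted p over all tested genes was 0.05 or lower and it differed 1.05-fold or more either way, or by adjusted p alone for the difference between genotypes. Comparisons over all mice carried the other factor as a term, and those within a genotype or treatment used a mean for each of the 4 groups. The edgeR standard errors (SE) were derived from the test, as the absolute log2 fold change divided by the square root of the F statistic. Correlations used log2 CPM with a prior count of 2 and 100000 permutations within groups. Positions and exon lengths came from GENCODE M21, which held 55227 of 55487 identifiers. DESeq2 1.42.0, limma 3.58.1, other filters and leaving out each mouse were tried as alternatives, and the code was tested on simulated data. Sums and figures were made in Python 3.11.15. The members and lists were chosen with earlier results of these data known. Besides the 10 members, genes were named by rule: in each pathway list and comparison over all mice up to 4 called genes with the smallest p, or 2 where none was called, the 2 nearest genes of each member, Thy1, App and marker genes. All 24 pairs of libraries within groups differed by more than counting noise.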

Additional observations from a re-analysis of the deposited data

Results flagged for a closer look

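Tead1 in the APPtg/CETPtg vehicle group had 1 mouse far from the other 3: mouse S5 was at 10.8 CPM, while the others were between 13.6 and 13.9 CPM. Of 40 groups of 4 mice looked at (10 genes in 4 groups), this was the 1 that passed Dixon's critical value, and chance flags about 1 in 20. Without mouse S5 the genotype difference of Tead1 within vehicle was -0.19 on the log2 scale, against -0.26 with it, and over all mice the call held (adjusted p = 0.0123 by edgeR).

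The evacetrapib values of Ccn1 and Ccn2 stood apart between genotypes at an unadjusted p below 0.05, and neither passed after adjustment over all tested genes in edgeR. For Ccn1 the log2 fold change in APPtg/CETPtg minus that in CETPtg was -1.49 (SE 0.30). For Ccn2 it was -0.28 (SE 0.13), with values between -0.36 and -0.16 over the settings and left-out mice, the latter without mouse S6. DESeq2 and the fit without a filter on low counts called the Ccn1 difference, the other settings and left-out mice did not, and over all of them its value stayed between -1.61 and -1.32. The treatment contrasts entered the choice of these genes, so both values are a description and support nothing.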

How the results depend on the processing

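The Wald test of DESeq2 called 59 genes with evacetrapib over all mice (2 by edgeR), 73 in APPtg/CETPtg (8 by edgeR), 2 for the difference between genotypes (0 by edgeR) and 1135 between genotypes within evacetrapib (556 by edgeR). With no filter on low counts edgeR called 35 over all mice, 9 in CETPtg, 88 in APPtg/CETPtg and 29 for the difference. An adjusted p of at most 0.1 gave 3007 genes between genotypes within vehicle and 1260 within evacetrapib. Without the genotype term 1 gene was called with evacetrapib, and the fit to the 8 APPtg/CETPtg mice called 2. The cause was not tested. Leaving out each mouse in turn gave 0 to 8 calls with evacetrapib over all mice, 0 in CETPtg, 0 to 14 in APPtg/CETPtg, 0 to 1 for the difference, 2503 to 3590 between genotypes, 909 to 1998 within vehicle and 91 to 858 within evacetrapib. Within vehicle the count moved by over 1.5 times without S1 (1007), S3 (909) or S8 (1215), and within evacetrapib without A (91), B (858), C (223), E (335), F (206), G (300) or H (335). In APPtg/CETPtg it was 4 without F, S2 or S4, 0 without G, 5 without H or S5, 3 without S7 and 14 without S8. Over all mice it was 0 without B, D, E, F, H, S1, S3, S5 or S7, 1 without G, 4 without S4 and 8 without S8, and the difference between genotypes had 1 without S2. Correlations gave 0 pairs in every setting.

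Of 700 genotype values of the 10 genes under an alternative, 6 lost a call, 20 gained one and 3 changed sign. Of 950 treatment values, which are a description, 9 lost a call, 3 gained one and 74 changed sign, all 74 of values closer to 0 than their standard error. The 3 genotype values lay within evacetrapib: without each mouse in turn Yap1 ranged from -0.067 to 0.024, positive without E, Wwc1 from -0.0092 to 0.062, negative without F, and Wwtr1 from -0.14 to 0.018, positive without F. Over all mice Lats1 and Tead1 were called between genotypes in all 8 alternatives and without each of the 16 mice, and Lats2 was lost only without mouse A. Within vehicle Lats1 was lost with no filter on low counts (adjusted p = 0.0671) and without S1, S3, S5 or S8, with adjusted p from 0.0114 to 0.113 over all of them. Wwc2 was called by DESeq2, under the stricter filter, at the looser threshold and without B, D, G or H, with adjusted p from 0.0287 to 0.143 over the alternatives. Within evacetrapib Lats1 was called in 4 of 7 alternatives, with adjusted p from 0.0197 to 0.0703, and within vehicle Tead1 was called in 4 of 7, with adjusted p from 0.0303 to 0.0924. Leaving out each of the 16 mice, edgeR called Lats1 within evacetrapib in 3 fits (adjusted p up to 0.140). It called Tead1 within vehicle in 1 (adjusted p up to 0.160). The Ccn1 call with evacetrapib in APPtg/CETPtg was lost in the fit to that genotype alone and without F, G, H, S2, S4, S5 or S7, with log2 fold changes from -1.37 to -1.14. Wwc1 with evacetrapib over all mice was called by DESeq2 alone.

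The column headings number the mice of each group from 1 to 4. Same-numbered mice did not deviate together (mean r = -0.01, against 0.00 for other numbers), and 2 of 16 mice correlated best with their own number. The replicate block by those numbers, added after the data were seen, called 5 genes with evacetrapib in APPtg/CETPtg, without Ccn1, and called Tead1 between genotypes within vehicle (adjusted p = 0.0427). It changed no other call among the 10 genes. Ccn1 had the fewest counts of the 10 genes, from 71 to 529, and varied by 22.0% to 25.9% among mice of a group.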
